A study of Homo sapiens with 6 samples.

Results

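Integrin and laminin genes encode the cell-surface receptors and the matrix chains through which epithelial cells hold on to the basement membrane. They were examined in DLD-1, an epithelial cell line from a human colorectal adenocarcinoma, given TGF-β with TFA (TGFb_TFA, 3 libraries) or TGF-β alone (TGFb, 3 libraries). TFA is the total flavone extract of the plant Abelmoschus manihot, TGF-β is a growth factor that can move epithelial cells towards a mesenchymal state, and the study asked whether TFA counters the malignant behaviour of TGF-β-treated cells. All 6 libraries therefore carry TGF-β, and no library without it was analysed here. The labels give 24, 25 and 26 h of treatment to libraries 1, 2 and 3 of each group, so label time and replicate number coincide. The same run of hours in both groups leaves it uncertain that these are true treatment times, the design text names 24 h of TGF-β before TFA, and nothing says whether the libraries came from separate cultures. Members were the rows of the deposited expression table with a protein-coding transcript and a name of the form ITGA, ITGB, LAMA, LAMB or LAMC followed by a chain designation, which gave 36 of 31016 genes: 16 integrin alpha, 8 integrin beta, 5 laminin alpha, 4 laminin beta and 3 laminin gamma genes. ITGAL matched by name only, since its row lists no protein-coding transcript, and was not counted.

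An integrin is a pair of an alpha and a beta chain that spans the membrane. The beta chain's short tail binds talin and kindlin, which tie the receptor to actin, whereas the long tail of the beta 4 chain binds plectin and so ties the alpha 6 beta 4 pair to keratin filaments in hemidesmosomes. A laminin is a cross-shaped trimer of an alpha, a beta and a gamma chain, secreted by epithelia as the base layer of the basement membrane. LAMA3 and LAMB3 encode chains of the laminin that anchors epithelia to the underlying tissue. TGF-β is known to raise several integrin and laminin genes in epithelia, and the beta 6 and beta 8 pairs with alpha V release active TGF-β from its latent form.

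RefSeq promoter windows were matched to 25 of the 36 members, some with several starts, giving 32 windows of the 250 bases before a start (GRCh38.p14). The windows of LAMA3 and LAMB3 are printed because these genes encode chains of the epithelial anchoring laminin and the windows were the only member windows with an AP-1 motif, and that of LAMC1, the general gamma chain, stands beside them; this choice was made after the motifs were counted. Capitals mark the motifs searched on both strands: TGANTCA, bound by AP-1; CAGAC, the SMAD box of TGF-β signalling; GGGCGG, the GC box; and GCGTG, the core bound by the aryl hydrocarbon receptor.
LAMA3 (chr18:23872770-23873019, plus strand): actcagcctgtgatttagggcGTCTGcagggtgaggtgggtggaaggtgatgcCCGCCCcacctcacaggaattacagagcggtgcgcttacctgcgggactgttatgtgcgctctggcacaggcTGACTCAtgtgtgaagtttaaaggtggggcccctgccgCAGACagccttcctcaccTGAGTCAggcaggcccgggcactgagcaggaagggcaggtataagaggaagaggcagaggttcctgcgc
LAMB3 (chr1:209651375-209651624, minus strand): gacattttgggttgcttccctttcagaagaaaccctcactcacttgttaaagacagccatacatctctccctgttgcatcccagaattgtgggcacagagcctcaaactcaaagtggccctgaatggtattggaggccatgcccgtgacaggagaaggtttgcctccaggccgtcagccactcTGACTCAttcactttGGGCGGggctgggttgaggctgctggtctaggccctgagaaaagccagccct
LAMC1 (chr1:183023170-183023419, plus strand): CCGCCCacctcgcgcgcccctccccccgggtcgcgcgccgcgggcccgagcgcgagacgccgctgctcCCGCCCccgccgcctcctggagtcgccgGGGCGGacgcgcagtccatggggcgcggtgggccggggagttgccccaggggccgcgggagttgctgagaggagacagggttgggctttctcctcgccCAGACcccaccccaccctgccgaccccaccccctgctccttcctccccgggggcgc

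The LAMA3 window holds 2 AP-1 motifs, 2 SMAD boxes and 1 GC box, the LAMB3 window (1 of 3 for that gene) 1 AP-1 motif and 1 GC box, and the LAMC1 window 3 GC boxes and 1 SMAD box. LAMA3 begins at base 23689443 of chromosome 18 in the deposited expression table, so its window precedes a start inside the gene. No window before that first base was among the 32. LAMB3, on the minus strand, begins there at base 209652425 of chromosome 1, so its printed window also lies inside the gene. The LAMB3 window just before that base (209652426-209652675) held 0 AP-1 motifs and 1 GC box. AP-1 motifs stood in 6.25% of member windows (2 of 32) and in 6.57% of 35116 RefSeq promoter windows of the same length. The SMAD box stood in 40.6% of member windows against 38.0% of all, the GC box in 50.0% against 42.6%, and the aryl hydrocarbon receptor core in 28.1% against 32.2%. Which start these cells used was not measured, and a motif match is not a binding site.

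Total estimated counts per library ran from 60361756 to 68745953. Colorectal epithelial markers fitted the label: 12 of 15 had a mean of at least 1 FPKM (fragments per kilobase of transcript, scaled for depth), while VIL1 and LGALS4 were under 1. CDX1 had no row of that name in the deposited expression table. TGFb_TFA 3 stood apart from the other libraries and from its own group. Its median over all genes tested was -0.0018 (log2 CPM, counts scaled to library size, against each gene's mean over the 6 libraries), but the longest 10% of genes tested, those of at least 11694 effective bases, lay at a median of -0.32 there and at 0.19, 0.15, 0.09, -0.16 and 0.20 in TGFb_TFA 1 and 2 and TGFb 1, 2 and 3. Integrin and laminin genes are long, with a median of 8328 effective bases against 4960 over all genes tested, so the fitted log2 fold changes of the members and the list medians are given with and without TGFb_TFA 3.

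No integrin or laminin gene passed the comparison of TGFb_TFA with TGFb. Of the 36 members, 29 had counts high enough to test, and 0 of them were called in either direction at an adjusted p under 0.05 (quasi-likelihood test of edgeR, Benjamini-Hochberg adjustment over 18265 genes, where 0.0109% of genes were called higher and 0% lower). Every tested member had an adjusted p of 0.9997, and 0 had an unadjusted p under 0.05, against 1.83% of all genes (1.07% higher and 0.761% lower). DESeq2 called 0 members, against 0.0603% of genes higher and 0.011% lower, and gave ITGB2 an unadjusted p of 0.0489. The fitted differences of 22 tested members were below 0 and those of 7 above 0, with a median log2 fold change of -0.17, where 48.1% of all genes were below 0 and their median was 0.01. Among the 18 members with a mean of at least 1 FPKM, 17 were below 0 at a median of -0.20, against 49.6% of all genes at that level with a median of 0.0014. Without TGFb_TFA 3 the median of these 18 members was 0.0034. Leaving that library out also moved long genes in general. The longest 10% of genes tested, which held 7 of the 29 tested members, had a median of -0.04 with all 6 libraries, where 58.1% were below 0. Without TGFb_TFA 3 their median was 0.12, and that of all genes tested 0.02. The sign of the list median thus depended on that library, and the refit without it is not neutral for long genes.

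**Figure D1:**
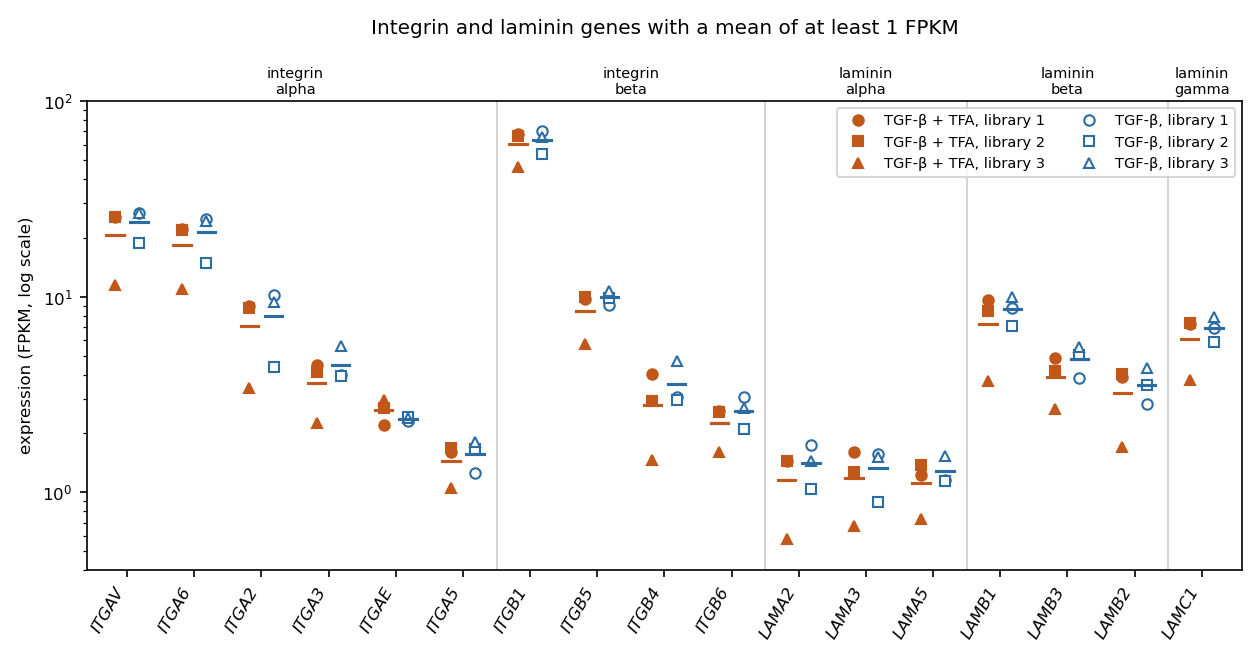
Expression in FPKM (log axis) of the 17 members reported here with a mean of at least 1 FPKM, one point per library, TGF-β with TFA in filled orange and TGF-β alone in open blue, with a bar at each group mean. The orange triangle of TGFb_TFA 3 is the lowest point of 16 genes, and ITGAE is the exception, with that library highest.

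The integrin alpha chains were led by ITGAV and ITGA6, which together with ITGA2 and ITGA3 are the usual alpha chains of gut epithelium. ITGAV, the alpha V chain that binds RGD-bearing ligands such as fibronectin and latent TGF-β, had 25.5, 25.4 and 11.5 FPKM in TGFb_TFA 1 to 3, against 26.7, 18.7 and 26.9 FPKM in TGFb 1 to 3. ITGA6, the laminin-binding chain that pairs with beta 4 or beta 1, had 22.1, 21.9 and 11.0 FPKM in the TGFb_TFA libraries, against 24.8, 14.8 and 24.4 FPKM in the TGFb libraries. In both genes TGFb_TFA 1 and 2 lay inside the range of TGFb, and TGFb_TFA 3 lay below all other libraries. In the fit, the log2 fold change of ITGAV was -0.21 (SE 0.26, 95% interval -0.83 to 0.41) and that of ITGA6 -0.21 (SE 0.27, interval -0.83 to 0.41). Without TGFb_TFA 3 they were 0.04 and 0.0038.

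ITGA2, the collagen-binding alpha 2 chain, spread most among the abundant alpha chains. Its FPKM was 8.95, 8.79 and 3.40 in TGFb_TFA 1 to 3, against 10.2, 4.38 and 9.36 in TGFb 1 to 3. TGFb_TFA 3 and TGFb 2 were both low, and the fitted value of -0.18 (SE 0.39) was 0.11 without TGFb_TFA 3 and 0.04 without TGFb 1. ITGA3, whose chain binds laminins, had 4.46, 4.10 and 2.25 FPKM in the TGFb_TFA libraries, against 3.96, 3.91 and 5.63 FPKM in the TGFb libraries. TGFb 3 was its high library and TGFb_TFA 3 its low one, with a log2 fold change of -0.31 (SE 0.23) that was -0.11 without TGFb_TFA 3. ITGA5, the alpha 5 chain of the classic fibronectin receptor, had 1.60, 1.68 and 1.05 FPKM in the TGFb_TFA libraries, against 1.26, 1.66 and 1.80 FPKM in the TGFb libraries (-0.11, SE 0.20, and 0.02 without TGFb_TFA 3). Its groups overlapped with 5 of the 6 values between 1.26 and 1.80 FPKM.

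ITGAE, the alpha E chain known from intraepithelial lymphocytes, where it pairs with beta 7 to bind E-cadherin, had another profile. It had 2.21, 2.71 and 2.95 FPKM in TGFb_TFA 1 to 3, against 2.31, 2.43 and 2.40 FPKM in TGFb 1 to 3. TGFb_TFA 3 was the highest library and TGFb_TFA 1 the lowest, so the groups overlapped. The log2 fold change was 0.19 (SE 0.18, interval -0.23 to 0.60), and 0.00295 without TGFb_TFA 3. Over the 6 libraries, ITGAE's deviations ran against the median of the other abundant members (Pearson r of -0.90, a description over 6 libraries that share the counting of one table). The r of LAMB1 and LAMC1 with that median, the highest of the members, was 0.99 and 0.98. For ITGB1 and ITGA5 it was 0.79 and 0.59. ITGB7, its partner chain, had at most 31 counts in any library. Leukocyte markers summed to 0.849 to 1.18 FPKM in TGFb_TFA and 0.930 to 1.08 FPKM in TGFb, over 7 of 12 markers. PTPRC, CD3D, CD3E, CD2 and MS4A1 had no row of that name in the deposited expression table. ITGAE shares 427 of its 6657 exon bases with HASPIN on the other strand (GENCODE 29), and the sources used here do not say whether counting used strand.

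Of the lower alpha chains, ITGA1, the collagen-binding alpha 1 chain that lies 30.1 kb before ITGA2 on chromosome 5 and overlaps PELO on its strand by 475 exon bases, had a mean of 0.643 ± 0.209 FPKM in TGFb_TFA and 0.656 ± 0.150 FPKM in TGFb (SD, n = 3 each), a log2 fold change of -0.02, or 0.17 without TGFb_TFA 3. ITGA7, the alpha 7 chain of muscle laminin receptors (0.16), ITGA10 (-0.0056), ITGA9 (0.39) and ITGA11, a collagen receptor chain of fibroblasts (0.64), had means over the 6 libraries of 0.186, 0.154, 0.0952 and 0.0208 FPKM. Without TGFb_TFA 3 their values were 0.19, -0.06, 0.56 and -0.08 in the same gene order. Their groups all overlapped. ITGA11 rested on TGFb_TFA 3, where it had 32 counts against 16 and 9 in TGFb_TFA 1 and 2 and 19, 15 and 8 in TGFb. The 5 alpha chains not tested, ITGAM, ITGA2B, ITGA4, ITGAD and ITGAX, are those of leukocytes and platelets, and their highest counts in any library were 29, 14, 12, 10 and 4. As a single fragment may add about 4 counts here, these are traces.

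Among the beta chains ITGB1, the common partner of most alpha chains, was the most abundant member. It had 68.2, 66.6 and 45.8 FPKM in TGFb_TFA 1 to 3, against 70.6, 53.5 and 65.5 FPKM in TGFb 1 to 3. TGFb_TFA 3 was lowest, TGFb 2 was next, and the fitted difference of -0.05 (log2) had the narrowest interval of the abundant integrin genes (SE 0.16, -0.41 to 0.31). It was 0.05 without TGFb_TFA 3 and 0.03 without TGFb 1. ITGB1 made up 80.2%, 80.6% and 83.5% of the summed beta chain FPKM in TGFb_TFA, against 81.7%, 77.8% and 77.8% in TGFb.

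ITGB5, which pairs with alpha V to bind vitronectin, had 9.69, 9.91 and 5.70 FPKM in the TGFb_TFA libraries, against 9.11, 9.90 and 10.8 FPKM in the TGFb libraries. ITGB6, the epithelial partner of alpha V that activates TGF-β, had 2.60, 2.58 and 1.60 FPKM in TGFb_TFA, against 3.07, 2.09 and 2.69 FPKM in TGFb. In both genes TGFb_TFA 3 alone lay under the TGFb range, and the fitted values were -0.22 (SE 0.18) for ITGB5 and -0.20 (SE 0.19) for ITGB6, each -0.06 without that library. ITGB4, the hemidesmosome chain, had 4.01, 2.93 and 1.47 FPKM in TGFb_TFA, against 3.08, 2.97 and 4.68 FPKM in TGFb. This was the lowest fitted value among abundant members (-0.35, SE 0.31, interval -1.08 to 0.38), and it ranged from -0.67 without TGFb_TFA 1 to -0.08 without TGFb_TFA 3. As a share of the ITGA6 level, ITGB4 stood at 18.1%, 13.3% and 13.4% in TGFb_TFA, against 12.4%, 20.0% and 19.2% in TGFb, so the hemidesmosome pair gave no split by group.

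ITGB8, the other beta chain that frees TGF-β, had 0.392 ± 0.145 FPKM in TGFb_TFA and 0.412 ± 0.126 FPKM in TGFb (SD, n = 3 each), with a log2 fold change of -0.07 that was 0.16 without TGFb_TFA 3. The leukocyte chain ITGB2 had the lowest unadjusted p of the integrin genes (0.0577, log2 fold change 1.58, interval -0.07 to 3.23), at trace level, and 1.88 without TGFb_TFA 3. Its counts were 25, 29 and 10 in TGFb_TFA 1 to 3, against 13, 5 and 5 in TGFb 1 to 3. The groups overlapped, since TGFb_TFA 3 lay under TGFb 1, and ITGB2 shares 303 exon bases with ITGB2-AS1 on the other strand. ITGB3, the platelet and endothelial chain, with at most 26 counts (-1.37, interval -4.12 to 1.38), and ITGB7, which shares 1886 of its 4481 exon bases with ZNF740 on the other strand (-0.42, interval -2.52 to 1.68), could not be resolved at this depth. Without TGFb_TFA 3 they were at -0.82 and -0.15. Platelet markers summed to 4.27 to 4.85 FPKM in TGFb_TFA and 3.74 to 4.71 FPKM in TGFb, nearly all of it PF4. Endothelial markers summed to 2.04 to 2.39 FPKM in TGFb_TFA and 1.55 to 1.99 FPKM in TGFb. Most of that sum was EGFL7, whose groups overlapped (1.20 to 1.49 FPKM in TGFb_TFA and 1.09 to 1.27 FPKM in TGFb). The part of platelet or endothelial cells in the ITGB3 values was not tested.

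**Figure D2:**
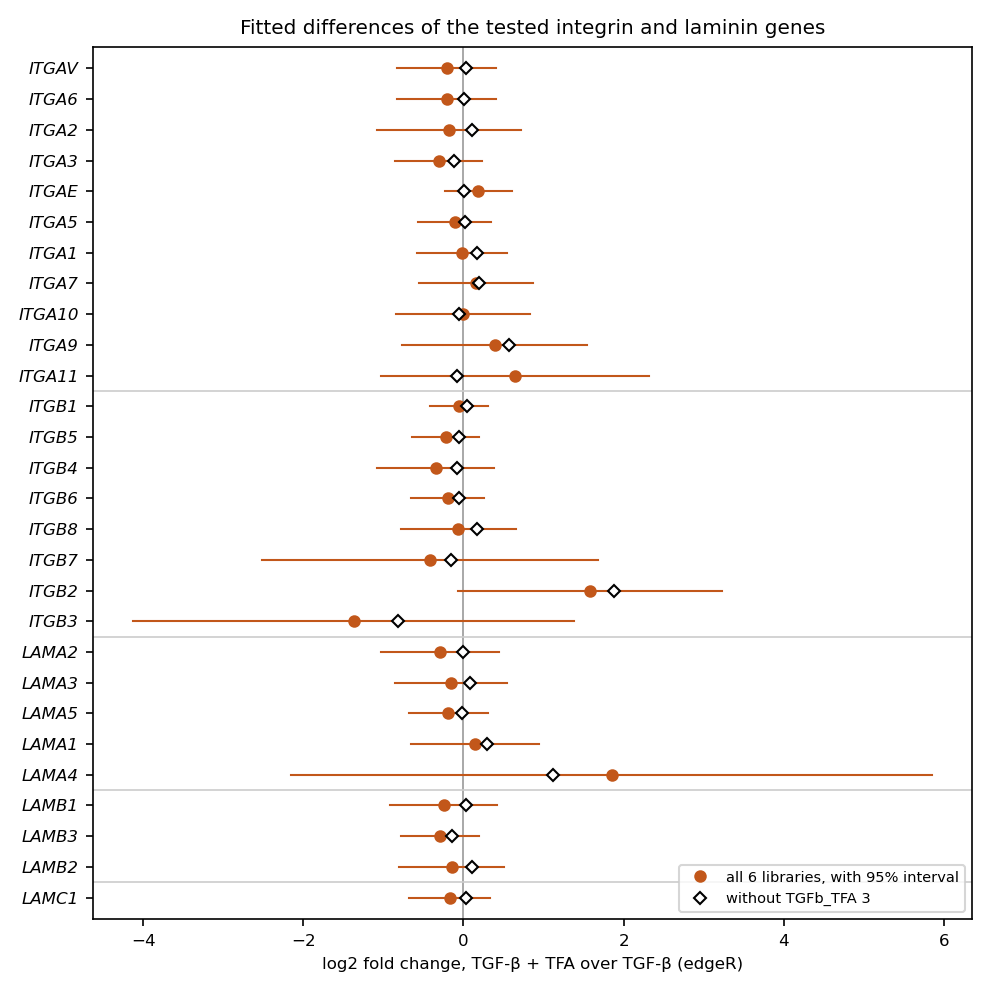
Fitted log2 fold changes (edgeR, TGF-β with TFA over TGF-β) of the tested members reported here, ordered by chain type and level, with filled circles and 95% intervals for all 6 libraries and open diamonds for the fit without TGFb_TFA 3. Every interval drawn holds 0, that of ITGB2 reaches from -0.07 to 3.23, and the diamond of ITGAV lies at 0.04, against its circle at -0.21.

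LAMC1, the gamma 1 chain of most basement membrane laminins, had 7.22, 7.31 and 3.76 FPKM in the TGFb_TFA libraries, against 6.93, 5.86 and 7.91 FPKM in the TGFb libraries. Its first 2 TGFb_TFA libraries lay within the TGFb range, and the fitted value was -0.17 (SE 0.22), or 0.03 without TGFb_TFA 3. LAMC3 was not tested, with at most 23 counts in any library.

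The groups overlapped in LAMB3 and in LAMA3. LAMB3 had 4.84, 4.17 and 2.66 FPKM in the TGFb_TFA libraries, against 3.86, 5.05 and 5.53 FPKM in the TGFb libraries. Its fitted value was -0.29 (SE 0.21, interval -0.78 to 0.19), and -0.14 without TGFb_TFA 3. LAMA3 had 1.60, 1.27 and 0.668 FPKM in TGFb_TFA, against 1.57, 0.889 and 1.51 FPKM in TGFb, with TGFb_TFA 3 and TGFb 2 low (-0.16, SE 0.30, and 0.08 without TGFb_TFA 3).

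LAMB1, the most abundant laminin gene, which encodes the beta 1 chain of general basement membranes, had 9.66, 8.43 and 3.71 FPKM in TGFb_TFA 1 to 3, against 8.77, 7.10 and 9.999 FPKM in TGFb 1 to 3. LAMB2, the beta 2 chain best known from kidney and synapse, had 3.89, 4.04 and 1.70 FPKM in TGFb_TFA, against 2.84, 3.53 and 4.30 FPKM in TGFb. In these genes 2 TGFb_TFA libraries stood within the TGFb range and the other was the lowest of all, and the fitted values of -0.25 (SE 0.29) for LAMB1 and -0.15 (SE 0.28) for LAMB2 were 0.03 and 0.11 without it. LAMB4, which lies 20.4 kb from LAMB1 on chromosome 7, had 4 counts in TGFb 1 and 0 elsewhere.

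Of the alpha chains, LAMA5, the alpha chain of most adult epithelial basement membranes including the gut, had 1.22, 1.39 and 0.730 FPKM in TGFb_TFA, against 1.16, 1.14 and 1.54 FPKM in TGFb (-0.19, SE 0.21). LAMA2, the chain mutated in congenital muscular dystrophy and best known from muscle, stood at a like level here, with 1.45, 1.44 and 0.578 FPKM in TGFb_TFA, against 1.75, 1.03 and 1.45 FPKM in TGFb (-0.29, SE 0.32). Without TGFb_TFA 3 these were -0.02 and -0.01. LAMA2, LAMA3 and LAMA5 differed by less than their spread over libraries, with means over the 6 libraries of 1.28, 1.25 and 1.20 FPKM. LAMA1, the embryonic alpha chain, had 99 to 209 counts in TGFb_TFA and 106 to 180 counts in TGFb (0.14, SE 0.34, and 0.29 without TGFb_TFA 3). LAMA4, the chain of vessel walls, had 0, 19 and 24 counts in TGFb_TFA, against 0, 0 and 13 counts in TGFb, and its fitted value of 1.85 had an interval from -2.15 to 5.85 and was 1.12 without TGFb_TFA 3.

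**Figure D3:**
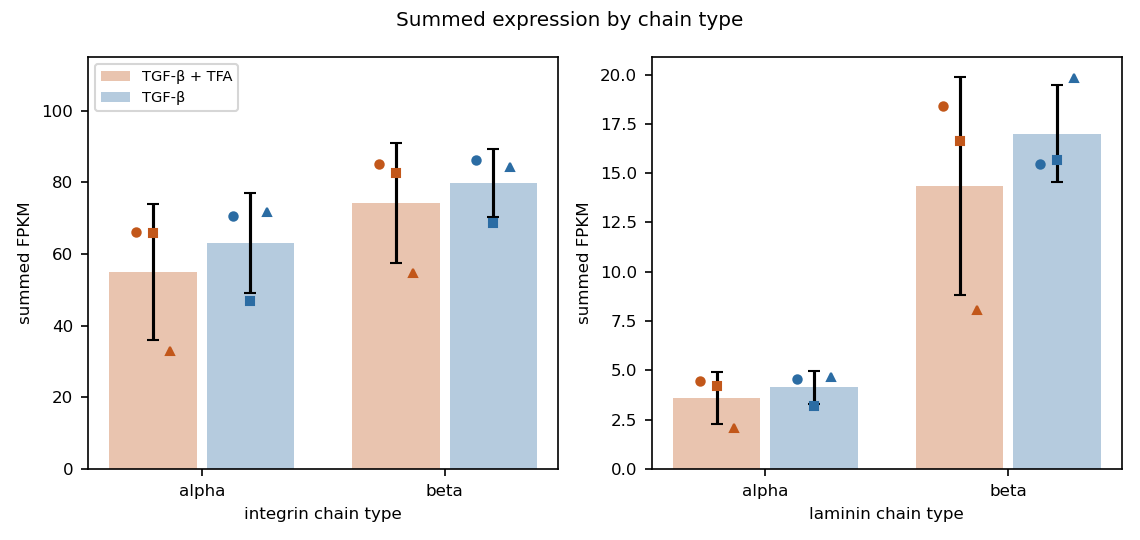
Summed FPKM over the integrin alpha and beta and the laminin alpha and beta genes, integrins at left and laminins at right on their own scales, with bars at the group mean, error bars of 1 SD (n = 3 each) and circles, squares and triangles for libraries 1, 2 and 3. The alpha chains of laminin sum to less than the beta chains in every library, and the triangle of TGFb_TFA 3 is the lowest point of each of the 4 chain types.

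Summed by chain type, the laminin alpha genes gave 4.46, 4.23 and 2.09 FPKM in TGFb_TFA 1 to 3, against 4.57, 3.18 and 4.67 FPKM in TGFb 1 to 3. Laminin beta genes gave 18.4, 16.6 and 8.07 FPKM in TGFb_TFA, against 15.5, 15.7 and 19.8 FPKM in TGFb. The sums overlapped between the groups in both chain types, and per length laminin alpha chain RNA was scarcer than beta chain RNA in each of the 6 libraries. Integrin alpha genes summed to 66.2, 65.9 and 33.0 FPKM in TGFb_TFA, against 70.5, 47.0 and 71.7 FPKM in TGFb. Integrin beta genes summed to 85.1, 82.6 and 54.8 FPKM in TGFb_TFA, against 86.4, 68.8 and 84.3 FPKM in TGFb. In these 4 chain types the TGFb_TFA 3 value was the lowest and the means of the groups differed by less than 1 SD of the TGFb_TFA libraries. That SD includes TGFb_TFA 3. The laminin beta means, 14.4 FPKM in TGFb_TFA and 17.0 FPKM in TGFb, differed by more than the TGFb SD of 2.46 FPKM.

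The median log2 fold change by chain type was -0.02 over 11 tested integrin alpha genes, -0.21 over 8 integrin beta genes, -0.16 over 5 laminin alpha genes and -0.25 over 3 laminin beta genes. Without TGFb_TFA 3 these medians were 0.02, -0.06, 0.08 and 0.03. The sign thus changed in both sets of alpha chains and in the laminin beta chains, and it stayed below 0 in the integrin beta chains. Of the 29 tested members, 12 changed sign without TGFb_TFA 3 and 6 did without TGFb 1.

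**Figure D4:**
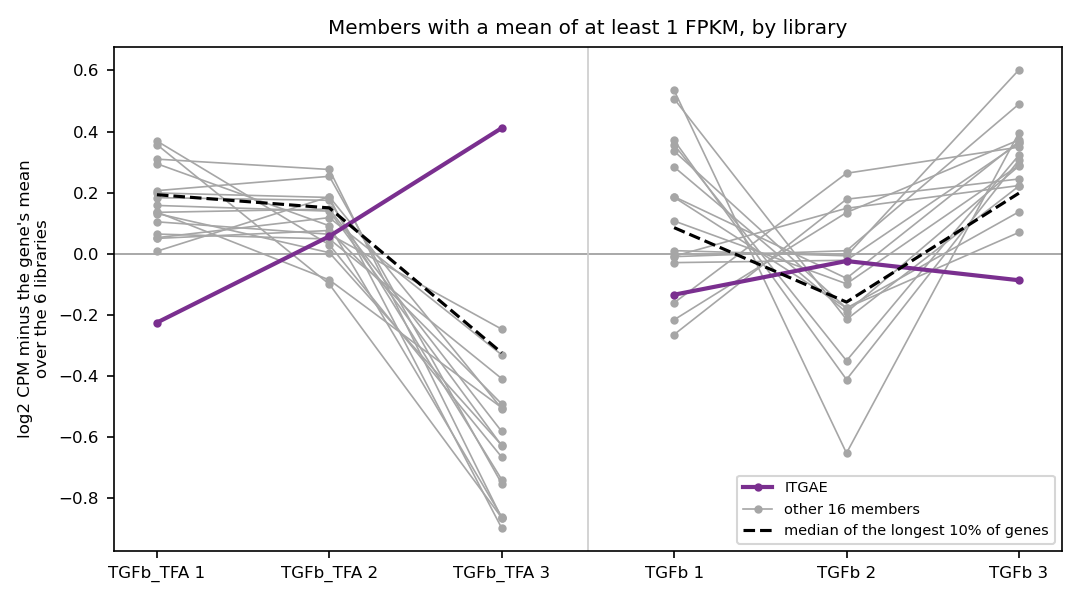
Log2 CPM of the 17 abundant members reported here, each minus its mean over the 6 libraries, TGFb_TFA at left and TGFb at right, with lines joining the values of 1 gene within a group and a dashed line for the median of the longest 10% of all genes tested. Grey lines drop together in TGFb_TFA 3, and ITGAE (purple) stands highest there.

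The abundant members varied together from library to library. Their median deviation was 0.14, 0.08 and -0.60 (log2) in TGFb_TFA 1 to 3, against 0.15, -0.05 and 0.30 in TGFb 1 to 3. TGFb_TFA 3 held the lowest CPM of 16 of these 18 genes, or 88.9%. It held the lowest value of 34.3% of all genes with a mean of at least 1 FPKM. The share was 30.1% of all genes tested and 52.8% of the longest 10%. The trend of that library along transcript length, read at the members' own lengths, had a median of -0.18, against the -0.60 observed. Offsets that remove each library's length trend left the median of the 18 genes at -0.19 and called 0 members, with the lowest unadjusted p of any member at 0.0560 (ITGB2). What else sets TGFb_TFA 3 apart was not tested. The pair TGFb_TFA 1 and 2 differed from each other least of all pairs of the same group.

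The cytoplasmic partners of integrins, on a list of 40 genes (38 tested), gave 0 calls, with 13 values above 0 and 25 below 0. The share below 0 was 65.8%, against 48.1% of all genes tested. Their median was -0.10, and 0 had an unadjusted p under 0.05 in the main edgeR fit, against 1.83% of all genes. Without TGFb_TFA 3 the median was 0.04, against 0.02 over all genes tested and 0.12 over the longest 10%. The lowest unadjusted p values belonged to TNS4, a tensin that binds integrin beta tails (-0.61, SE 0.28), VCL, the talin-binding vinculin (-0.40, SE 0.21), and RSU1, a member of the complex of integrin-linked kinase (0.27, SE 0.16). TNS4 had 7.78, 6.86 and 3.48 FPKM in TGFb_TFA, against 7.17, 8.33 and 12.2 FPKM in TGFb, and its groups overlapped. Without TGFb_TFA 3 the values were -0.38 for TNS4, -0.20 for VCL and 0.11 for RSU1. The count of 0 depended on the setting. With length offsets the unadjusted edgeR p was 0.0421 for TNS4 (-0.61) and 0.0236 for VCL (-0.39), and 0 genes were called lower. DESeq2 gave TNS4 an unadjusted p of 0.0365. The most abundant, CRK (0.12), FLNA (-0.14) and ACTN4 (-0.24), are an adaptor and 2 actin cross-linkers, with values of 0.19, 0.13 and -0.10 without that library.

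Basement membrane and hemidesmosome partners (22 genes, all tested) had 0 calls and 1 gene at an unadjusted p under 0.05 (edgeR), against 1.83% of all genes. They had 11 values above 0 and 11 below 0 (50%, against 48.1% of all genes tested) and a median of -0.0032. Without TGFb_TFA 3 their median was 0.17, where all genes tested stood at 0.02 and the longest 10% at 0.12. CD151, the tetraspanin that binds the laminin-binding integrins, was their most abundant member, with 66.1, 67.3 and 74.4 FPKM in TGFb_TFA, against 67.9, 78.1 and 69.3 FPKM in TGFb (-0.01, SE 0.15, and -0.15 without TGFb_TFA 3). Unlike its integrin partners it was highest within its group in TGFb_TFA 3. LGALS3BP (-0.31) and DAG1, the laminin receptor dystroglycan (-0.08), came next in level, and were at -0.21 and 0.14 without that library. COL17A1, the hemidesmosome collagen (-0.57, SE 0.27), and COL7A1, the anchoring fibril collagen (0.41, SE 0.21), both stood under 1 FPKM in every library and had values of opposite sign. Without TGFb_TFA 3 these were -0.45 and 0.46. SPARC, a matrix protein, had the lowest p of the list (0.0412), with 1.28, 1.53 and 3.67 FPKM in TGFb_TFA, against 0.139, 0.792 and 1.06 FPKM in TGFb (1.78, SE 0.73, and 1.03 without TGFb_TFA 3).

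Other integrin ligands (29 genes, 23 tested) had 13 values above 0 and 10 below 0 (43.5%, against 48.1% of all genes tested), a median of 0.0033 and 0 calls. In the edgeR fit 2 had an unadjusted p under 0.05, both with values above 0, against 1.83% of all genes (1.07% higher). Without TGFb_TFA 3 the median was 0.11, against 0.02 over all genes tested and 0.12 over the longest 10%. The 2 genes were FBN1, the RGD-bearing fibrillin (0.83, SE 0.31), and FN1, fibronectin (1.02, SE 0.43). FN1 had 0.372, 1.21 and 0.420 FPKM in TGFb_TFA, against 0.270, 0.284 and 0.427 FPKM in TGFb. Its value was 0.35 without TGFb_TFA 2 and 1.22 without TGFb_TFA 3. FBN1 was at most 0.114 FPKM and EDIL3, an RGD-bearing endothelial protein (2.32, SE 1.01), at most 0.115 FPKM in any library. Without TGFb_TFA 3 FBN1 was at 0.88 and EDIL3 at 2.02. Without TGFb 1, where EDIL3 had 0 FPKM, FBN1 was at 0.66 and EDIL3 at 1.73. The abundant ligands ADAM9 (-0.02), CDH1, the ligand of alpha E (-0.26), and ADAM15 (0.0033) had groups that overlapped, and without TGFb_TFA 3 were at 0.11, 0.0054 and 0.0025. Fibroblast markers lay higher beside the trace-level matrix ligands: 8 of 8 tested were above 0, where 48.1% of all genes tested were below 0. The endothelial list gave 5 of 6 above 0, smooth muscle 3 of 4, leukocyte 2 of 4 and platelet 2 of 3. The 8 of 8 carries little weight, since markers near 0 in TGFb pass the count filter through TGFb_TFA. COL6A3, for example, had 0.0752, 0.191 and 0.0297 FPKM in TGFb_TFA, against 0.0106, 0 and 0.0120 FPKM in TGFb. The sum over 11 fibroblast markers was 0.767 to 2.69 FPKM in TGFb_TFA and 0.0630 to 0.749 FPKM in TGFb, with none of the 11 at 0 in all libraries. None of the 11 markers had a mean of at least 1 FPKM. Their part in the values of SPARC, FN1, FBN1, EDIL3, LAMA4 and ITGA11 was not tested. In these bulk libraries of a cell line, more cells of a type cannot be told apart from more RNA per cell.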

How the data were processed

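Poly(A) RNA of 6 DLD-1 libraries was sequenced from dUTP-stranded, UMI-tagged fragments, per the labels' protocols. Listed in the submitters' processing notes, with no role given, are GRCh38, StringTie 1.3.4d, HISAT2 2.0.4 and cutadapt 1.9. The authors' deposited table gives FPKM, already scaled for length and depth, and estimated counts, already whole numbers, that were used as deposited. The effective length (count over FPKM, scaled for depth) was 1.10 to 1.66 times the GENCODE 29 exon bases (median 1.13, 24 members compared), and the sources used here do not say which length FPKM uses. A count of 4 was commoner than 3 or 5 in every library, so counts may overstate fragments.

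Estimated counts were tested with edgeR 4.0.16 (R 4.3.3): filterByExpr, TMM, a quasi-likelihood fit on group alone, and Benjamini-Hochberg adjustment over 18265 genes. SE is the log2 fold change over the square root of F. P-values measure the spread between these libraries, which may be technical. Alternatives were limma-trend 3.58.1 on log2(FPKM + 0.5), DESeq2 1.42.0, other filters, length offsets, a replicate block and left-out libraries, 17 in all. The scripts were tested on simulated counts. Members and lists were chosen with earlier results of these data known. 1 member is not reported here, though the counts and medians over the whole list include it. Every other tested member is named; of each partner list, the 3 lowest p and the 3 most abundant. Within each group, libraries were farther apart than counting error allows (chi-square per degree of freedom of at least 3.35 on counts divided by 4).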

Additional observations from a re-analysis of the deposited data

How the results depend on the processing

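The number of integrin and laminin genes called was 0 under each of the 17 alternatives. Over all genes the main count of 2 higher and 0 lower was 11 higher and 2 lower with the DESeq2 Wald test, 1 higher with the replicate block, and 1 lower with TGFb_TFA 3 and TGFb 1 left out together; without 1 library it ran from 1 to 3 higher. The replicate numbers did not pair the libraries (correlations of deviations of 0.04, -0.12 and -0.13 for numbers 1, 2 and 3), and TGFb_TFA 3 correlated best with TGFb 2 (0.21). With the replicate block the median of all tested members was -0.19 and no member was called. Without 1 library that median ran from -0.29 (without TGFb_TFA 1) to 0.02 (without TGFb_TFA 3). Without TGFb 3 it was -0.09 and without TGFb 1 -0.11. The basement membrane partners' median was -0.25 with limma-trend on log2(FPKM + 0.1), where 11 of 22 genes were high enough to test, and -0.0032 with edgeR. Differences of about 0.2 (log2) lie within the standard errors here (median 0.23 for the abundant members), so changes of that size were not detectable, and the trace-level chains are limited by their counts.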
